A study of Mus musculus with 4 samples.

Results

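The 10 genes described here mark Kupffer cells, the resident macrophages of the liver, and macrophages in general. They are Adgre1 (listed under its older symbol Emr1), Clec4f (listed by some tables as Clecsf13), Folr2, Aif1, Cd5l, Csf1r, Cd68, Marco, Cd163 and Cd14. They were taken by name from the 28786 gene names and 41174 gene probes of a whole-genome mouse oligonucleotide array, on which 14 probes carried them. The brightest probe of each gene was well above the local background in both dyes on all 4 arrays, so all 10 entered every comparison.

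Livers of C57BL/6J mice were compared between a control and a food-deprived (FD) condition, once in the fetus and once in the mother. Total RNA of 5 to 10 biological replicates was pooled for each condition. Each pair of pools was then hybridised on 2 two-colour arrays with the dyes exchanged, so that control RNA carried Cy3 on array 1 and Cy5 on array 2. The 4 pools were therefore control fetus, FD fetus, control mother and FD mother, all of the same strain and tissue, with no genotype or drug. Control animals had free access to chow and water. The labels give no gestational stage, maternal age or length of deprivation. The labels call the arrays pooled samples 1 and 2 and do not say whether these were separate pools, so both arrays together were counted as 1 replicate. No p-value can be given, and the labels do not tell whether the spread between the 2 arrays is technical only.

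Between 53.2% and 69.7% of gene spots per array and dye were well above background, and no gene spot was saturated. The number of arrays limits the precision, with 2 for each response and 4 for each comparison of mother and fetus. Hepatocyte transcripts summed to between 317040 and 446570 intensity units in every pool, so the labelled tissue was borne out. Erythroid transcripts summed to 122800 to 161240 units in the fetal pools against 12497 to 14289 in the maternal ones, and granulocyte transcripts to 87672 to 108890 against 2045.1 to 2222.1. A whole-liver extract mixes all these cells. Fewer macrophages and less macrophage RNA in each cell cannot be told apart in any value below.

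Kupffer cells line the liver sinusoids, where they clear bacteria, endotoxin, dying cells and old erythrocytes from portal blood. They depend on signalling through the receptor Csf1r, and their identity genes are driven by macrophage transcription factors, among them PU.1 and the liver X receptor. In the fetus the liver is also the main blood-forming organ, and its macrophages sit at the centre of erythroblastic islands, where they take up the nuclei that red cell precursors expel.

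The probes of the markers were 60-base oligonucleotides. Each of the 14 holds at least 1 open reading frame along its whole length. The following 3 are shown because each belongs to a gene that was about 2-fold lower, or nearly so, in the FD mother. For Aif1 the second probe is shown, while the Aif1 call below came from the brighter probe. Positions are those of the array's own annotation, on mouse build mm7, and all 3 lie on the minus strand.
Folr2, chr7:97886503-97886562: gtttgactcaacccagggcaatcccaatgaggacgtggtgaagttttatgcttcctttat
Clec4f, chr6:83670672-83670730: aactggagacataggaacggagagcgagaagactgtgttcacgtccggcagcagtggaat
Aif1, second probe, chr17:33268568-33268813: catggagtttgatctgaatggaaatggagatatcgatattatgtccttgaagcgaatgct
The annotated span of the second Aif1 probe, 246 bases, is longer than the probe itself, and that of the Clec4f probe is 59 bases.

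Promoter sequences from RefSeq on GRCm38.p6 were matched for 7 of the 10 genes, Aif1, Cd5l, Folr2, Clec4f, Marco, Cd163 and Cd68. The PU.1 core, GAGGAA read on either strand, occurred in the promoter of 4 of the 7, Aif1, Cd5l, Marco and Cd68, and in 28.3% of all 32851 promoters of the same 300-base length. The C/EBP core, TTGCGCAA or TTGCAT on either strand, occurred in Cd68 alone and in 10.9% of all promoters. In these 7 promoters no 2 matches shared bases, and a match describes the letters only. The 250 bases before the start of Cd5l and Aif1 are shown because both genes held a PU.1 core and both were called lower in the FD mother. Capitals mark the core, which reads TTCCTC in the direction of the gene.
Cd5l, chr3:87357631-87357880, plus strand: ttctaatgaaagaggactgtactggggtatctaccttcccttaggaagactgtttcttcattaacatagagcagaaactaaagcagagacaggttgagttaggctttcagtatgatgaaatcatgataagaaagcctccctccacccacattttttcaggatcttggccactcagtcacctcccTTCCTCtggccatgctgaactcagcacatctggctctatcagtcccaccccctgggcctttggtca
Aif1, chr17:35176053-35176302, minus strand: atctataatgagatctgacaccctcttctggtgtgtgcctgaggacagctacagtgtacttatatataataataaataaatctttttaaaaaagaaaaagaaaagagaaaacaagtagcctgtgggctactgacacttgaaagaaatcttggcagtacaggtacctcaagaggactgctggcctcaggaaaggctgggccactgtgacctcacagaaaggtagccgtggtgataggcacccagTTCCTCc

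In maternal liver, food deprivation went with lower signals for 4 of the 10 markers and with a higher signal for 1. Adgre1, Aif1, Folr2 and Cd5l were lower and Cd14 was higher, each by a little over 2-fold. A gene was called where the mean of both arrays was at least 2-fold and each array at least 1.5-fold in the same direction. By that rule 4 of 10 markers were called lower, against 1.88% of the 16148 genes measured, and 1 of 10 higher, against 1.55%, or 5 of 10 in either direction against 3.43%. The markers were chosen with earlier results of these data known, so their share called is no test of the set. On the log2 scale 7 of the 10 were below 0 on both arrays, 2 were above 0 on both, and the median of the 10 was -0.72, against -0.0084 over all genes. By their means 7 of the 10 were below 0, against 52.1% of all genes measured. All ratios below are log2 of FD over control after the dye orientation was turned, and levels are normalised intensities in arbitrary units that include an added offset of 50.

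**Figure D1:**
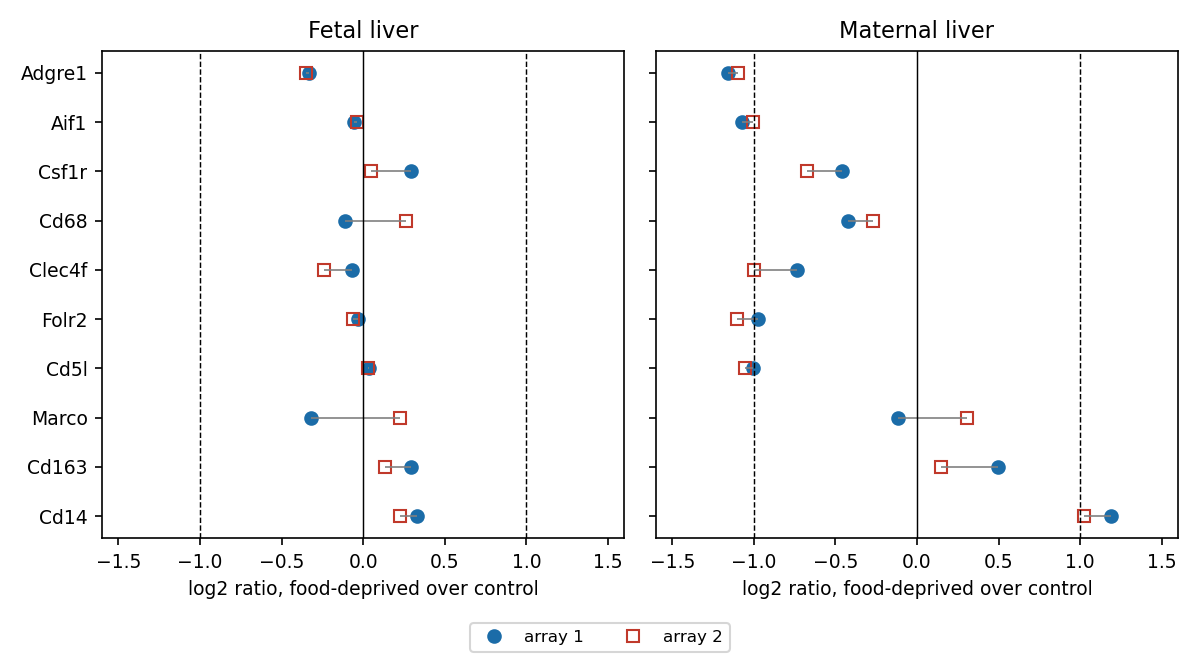
Log2 ratio of food-deprived over control liver for the 10 markers in fetus (left) and mother (right); circles are array 1, squares array 2 with dyes exchanged, and dashed lines mark 2-fold. In the mother Adgre1, Aif1, Folr2 and Cd5l lie near or beyond the lower line and Cd14 beyond the upper one, while in the fetus no marker lies beyond -0.35 or 0.33.

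Among the surface receptors that identify Kupffer cells, Adgre1 (an adhesion G protein-coupled receptor widely used to identify mouse macrophages) read 2491 and 2322 units in the control mother and 1115 and 1087 units in the FD mother on arrays 1 and 2. Both FD readings were below both control readings. The log2 ratios were -1.16 and -1.09, a mean of -1.13 ± 0.045 (SD, 2 arrays), or 2.18-fold lower. Only 1.38% of measured genes had a lower mean ratio. A second Adgre1 probe read close to background, at log2 levels of 6.63 to 6.72 in all pools, and gave ratios of -0.02 and 0.03 in the mother. It therefore could not show the difference that the brighter probe showed.

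Folr2, the folate receptor beta of tissue macrophages, read 964 and 1014 units in the control mother and 490 and 473 units in the FD mother. The FD readings again lay below both controls. Its log2 ratios were -0.97 and -1.10, 2.05-fold lower on average, and array 1 alone stayed just short of 2-fold. Clec4f, a C-type lectin that in mice is largely restricted to Kupffer cells, read 4400 and 4182 units in the control mother and 2643 and 2096 units in the FD mother. The log2 ratios of -0.74 and -0.996 averaged -0.87 ± 0.18 (SD, 2 arrays), 1.82-fold lower. Clec4f thus missed the 2-fold rule, although its FD and control readings did not overlap.

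Aif1, a calcium-binding protein of the macrophage cytoskeleton also known as IBA1, read 949 and 909 units in the control mother and 452 and 453 units in the FD mother. The log2 ratios were -1.07 and -1.01, 2.05-fold lower. The second Aif1 probe, printed above, gave log2 ratios of -1.30 and -0.78. Both Aif1 probes were therefore lower on both arrays, with a wider spread for the dimmer one. Cd5l, a secreted scavenger receptor cysteine-rich protein made by macrophages, read 8933 and 8037 units in the control mother and 4442 and 3875 units in the FD mother. Its log2 ratios were -1.01 and -1.05, 2.04-fold lower, with the smallest spread between arrays among the 10 genes in the mother, an SD of 0.032.

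Csf1r, the receptor for the macrophage growth factors CSF1 and IL34, read 1248 and 1371 units in the control mother and 909 and 860 units in the FD mother. Its ratios of -0.46 and -0.67 averaged 1.48-fold lower and did not reach the rule. Of the other Csf1r probes, one of medium brightness gave -0.52 and -0.18 in the mother, and one near background gave -0.07 and -0.01. Cd68, a lysosomal membrane glycoprotein of phagocytes, read 349 and 315 units against 261 and 261 units. Its ratios were -0.42 and -0.27, 1.27-fold lower, below the rule.

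The scavenger receptors Marco and Cd163 did not share this direction. Marco, a class A scavenger receptor for bacteria and particles, read 2765 and 2194 units in the control mother and 2547 and 2717 units in the FD mother, so that the conditions overlapped. Its ratios had opposite signs, -0.12 and 0.31. Cd163, the receptor for haemoglobin bound to haptoglobin, read 353 and 789 units in control and 498 and 875 units in FD. Its ratios were 0.49 and 0.15, both above 0 and short of the rule. The 2 maternal arrays gave very different Cd163 readings in both dyes, and the readings of the conditions overlapped across arrays.

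Cd14, the endotoxin co-receptor that macrophages and also hepatocytes make, was the only marker called higher. It read 352 and 325 units in the control mother and 802 and 662 units in the FD mother. Both FD readings were above both controls. The log2 ratios were 1.19 and 1.02, a mean of 1.11 ± 0.12 (SD, 2 arrays), or 2.15-fold higher, at the 98.7th percentile of measured genes. The offset makes up a larger part of low readings, so that the ratio of dim probes such as those of Cd14, Cd68 and Cd163 is drawn towards 0.

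**Figure D2:**
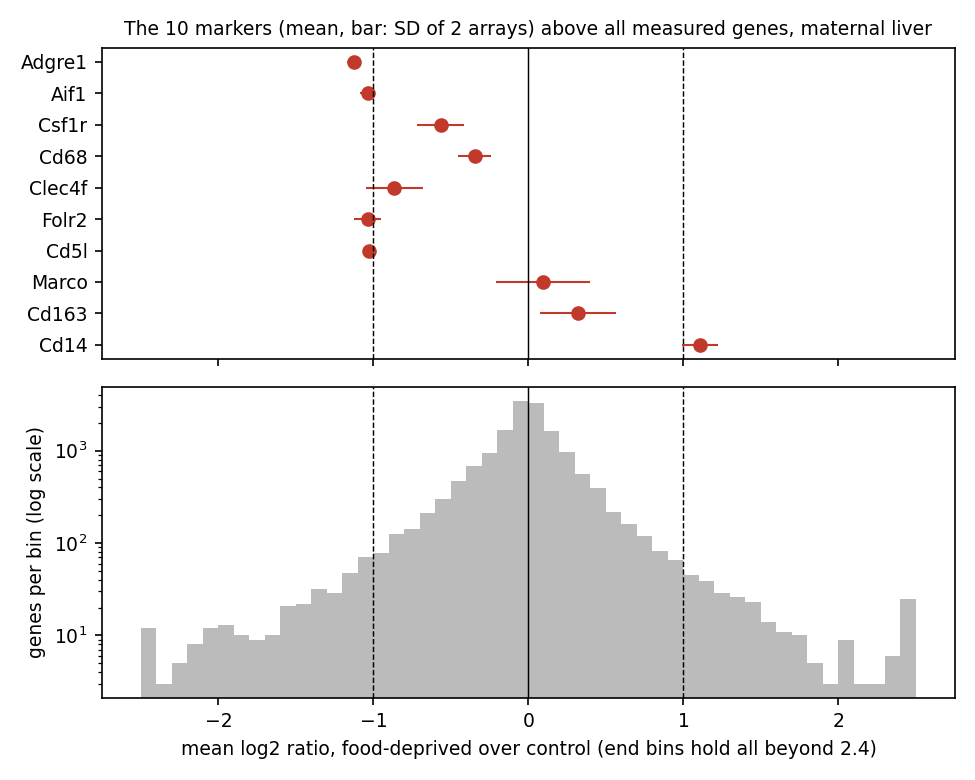
Upper panel, mean log2 ratio of food-deprived over control maternal liver for each marker, with bars for the SD of 2 arrays; lower panel, the same ratio for all 16148 measured genes, in bins 0.1 wide on a logarithmic count axis. Adgre1, Aif1, Folr2 and Cd5l lie in the lower tail at -1.13 to -1.03, Cd14 in the upper tail at 1.11, and Marco near the centre at 0.09.

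The maternal calls rested on the intensity-dependent correction of the dyes within each array. With plain centring of each array on its median, none of the 10 was called. The 2 arrays then read 0.08 and -2.38 for Adgre1, 0.44 and -2.62 for Cd5l, and 2.19 and 0.10 for Cd14, and 5951 genes followed the dye rather than the condition. The means over the exchanged dyes barely moved, to -1.15 for Adgre1, -1.09 for Cd5l and 1.15 for Cd14. Without array 2 the Folr2 call was lost, which left 4 markers called.

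In fetal liver no marker was called, against 0.737% of the 18055 genes measured, 0.471% higher and 0.266% lower. Of the 10 means 5 were below 0 and 5 above, while 48.7% of all genes measured were below 0. The median was -0.0061 against 0.0038 over all genes, and the whole range ran from -0.34 to 0.28. Adgre1 was at the low end. It read 4130 and 3845 units in the control fetus and 3286 and 3009 units in the FD fetus, and both FD readings were below both controls. The ratios of -0.33 and -0.35 correspond to 1.27-fold lower, and 3.45% of measured genes had a lower mean ratio. Cd14 was at the high end, with 158 and 164 units in control, 198 and 193 units in FD, and ratios of 0.33 and 0.23. The order of these 2 genes at the ends of the range was therefore the same as in the mother, at a much smaller size.

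Cd5l, Aif1 and Folr2, called lower in the FD mother, were nearly level in the fetus. Cd5l read 9142 and 9810 units in the control fetus and 9361 and 10029 units in the FD fetus, with ratios of 0.03 and 0.03. Aif1 read 813 and 1147 units against 783 and 1118 units, with ratios of -0.05 and -0.04. Folr2 read 427 and 418 units against 418 and 401 units, with ratios of -0.03 and -0.06. For Aif1 the arrays differed more than the conditions did. Clec4f read 2961 and 3540 units against 2823 and 3002 units, with ratios of -0.07 and -0.24.

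Csf1r and Cd163 were above 0 on both fetal arrays, with ratios of 0.29 and 0.05 for Csf1r and 0.29 and 0.13 for Cd163. The Csf1r probe of medium brightness gave -0.07 and 0.23 in the fetus, of opposite signs. Csf1r read 1817 and 1837 units in the control fetus and 2226 and 1901 units in the FD fetus. Cd163 was the dimmest of the 10 here, at 131 and 116 units in control and 161 and 127 units in FD. Marco and Cd68 had opposite signs on the 2 fetal arrays, at -0.32 and 0.23 for Marco and -0.11 and 0.26 for Cd68. Marco read 14153 and 10733 units in control and 11320 and 12550 units in FD, and the conditions overlapped.

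**Figure D3:**
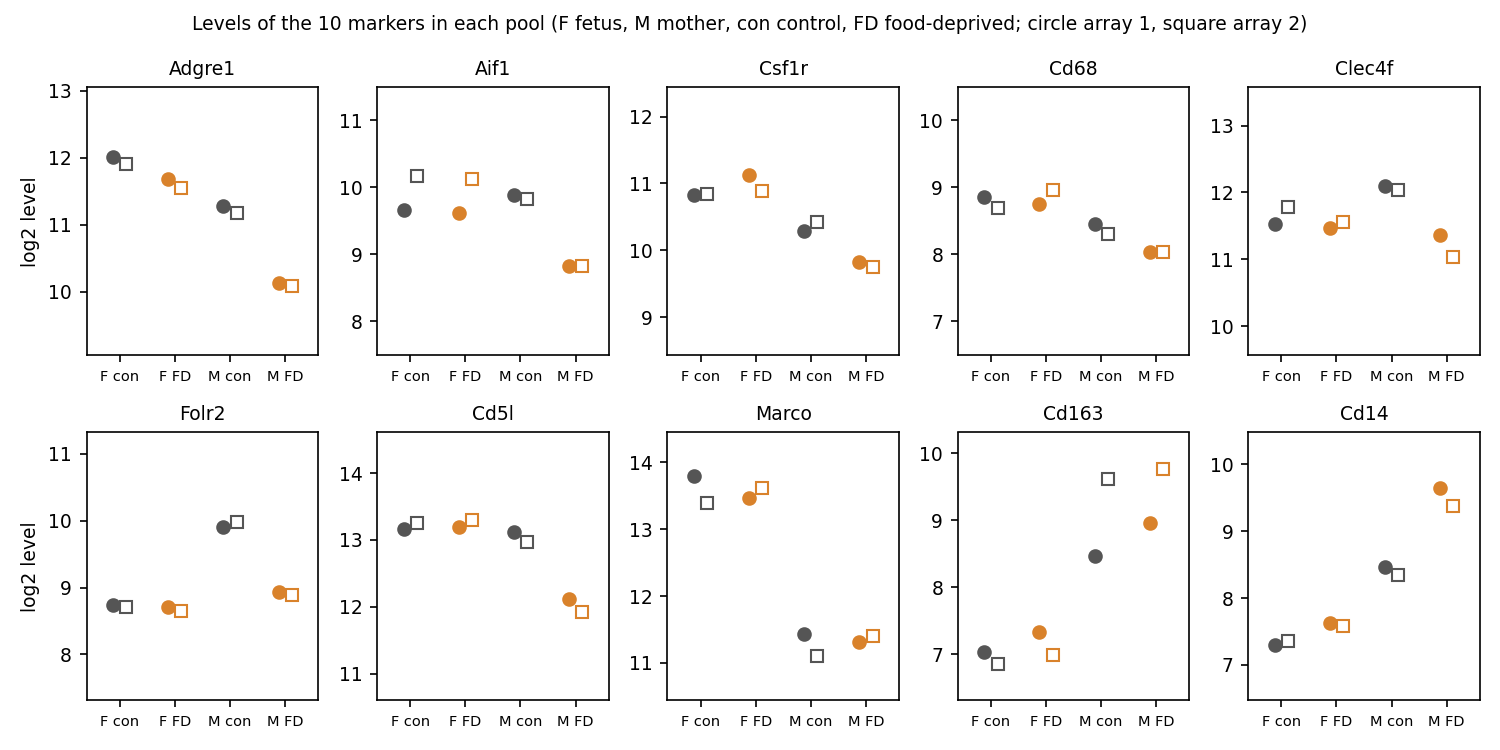
Log2 level of each marker in the 4 pools, with control in grey and food-deprived in orange, circles for array 1 and squares for array 2; each panel spans 4 log2 units around the gene's own middle, and levels are not comparable between panels. Adgre1, Aif1, Folr2 and Cd5l drop between the maternal control and food-deprived pools, Marco separates fetus from mother, and Cd163 differs between the 2 maternal arrays in both conditions.

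The maternal and fetal ratios were also set against each other array by array. The difference, maternal minus fetal, was below 0 on both arrays for 7 markers and above 0 on both for 3, with a median of -0.72 against -0.017 over all genes. By their means 7 of the 10 markers were below 0, against 53.4% of all genes measured. Cd5l was the 1 marker called and was lower. Of 15598 genes 2.99% were called, 1.76% lower and 1.23% higher. Cd5l had differences of -1.04 and -1.08, or 2.09-fold. Aif1 and Folr2 each averaged -0.99 and stopped just short of 2-fold. Adgre1 averaged -0.79, Csf1r -0.74, Clec4f -0.71 and Cd68 -0.42, while Cd14 averaged 0.83, Marco 0.14 and Cd163 0.11. The count of 1 depended on the processing. It was 3 without background subtraction, with Aif1 and Folr2 joining Cd5l, and 4 with the scanner software's own signals, with Cd14 joining as well.

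The control levels of mother and fetus were compared within each dye across arrays. Of the 10 markers 3 were called higher in the mother, against 9.06% of the 18085 genes measured, and 1 lower, against 10.3%, or 4 in either direction against 19.3%. The share of markers called therefore lay nearer to the share of all genes than in the maternal response. The median of the 10 was -0.11 on the log2 scale against 0.023 over all genes, and it turned positive without array 2, with the scanner software's signals, with median centring and with scaling to the 75th percentile, which moved the median of all genes to 0.31.

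Marco stood lowest in the mother. It read 14153 units in the control fetus and 2765 in the control mother in Cy3, and 10733 and 2194 units in Cy5. The log2 differences of -2.36 and -2.29 averaged 5.0-fold lower, and the direction held in all 12 alternative settings. Folr2 and Cd14 stood higher in the mother. Folr2 read 427 against 964 units in Cy3 and 418 against 1014 units in Cy5, a difference of 1.18 and 1.28, or 2.34-fold. Cd14 read 158 against 352 units and 164 against 325 units, a difference of 1.16 and 0.98, or 2.10-fold. Without array 1 of each group the Cd14 call was lost.

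Cd163 was also called higher in the mother, with differences of 1.43 in Cy3 and 2.77 in Cy5. The 2 values are far apart, with an SD of 0.95 around a mean of 2.10. The fetal Cd163 readings of 131 and 116 units include the offset of 50. Over the alternative settings the difference ran from 1.43 on array 1 alone to 3.84 with the scanner software's signals. The direction was the same in all of them, but the size was poorly fixed.

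The other markers differed by less than 2-fold between the control livers. Adgre1 was lower in the mother by the same amount in both dyes, -0.73 and -0.73, or 1.66-fold. Csf1r differed by -0.54 and -0.42, with 0.10 and -0.23 for its probe of medium brightness, and Cd68 by -0.41 and -0.40. Clec4f was higher by 0.57 and 0.24. Cd5l differed by -0.03 and -0.29 and changed sign in 2 of 12 alternative settings, and Aif1 had opposite signs in the 2 dyes, 0.22 and -0.34. The second Aif1 probe differed by -0.30 and -0.43, lower in the mother in both dyes. Kupffer markers in control liver thus did not share one direction.

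**Figure D4:**
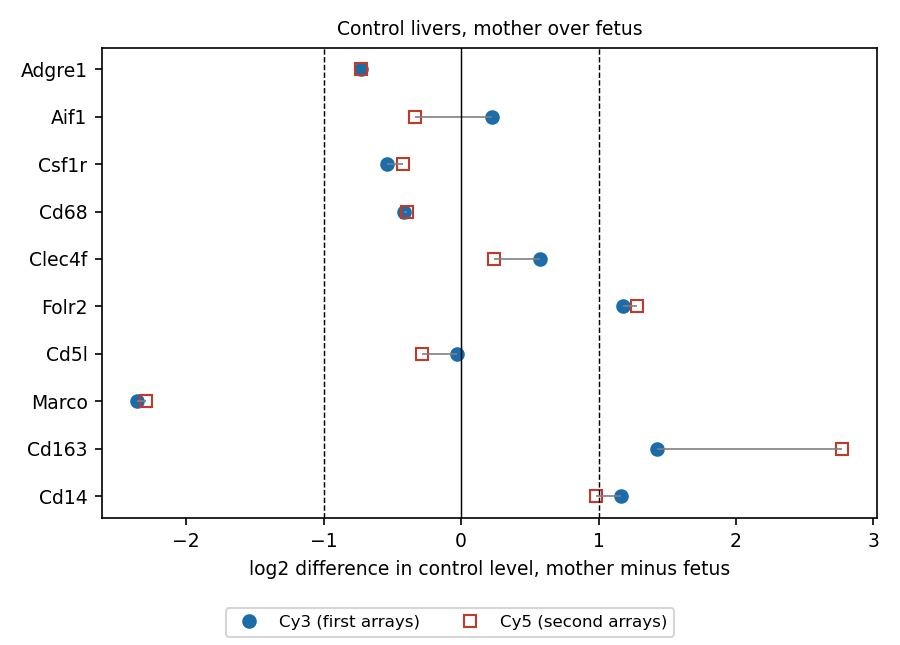
Log2 difference in control level, mother minus fetus, for the 10 markers in Cy3 (circles, first arrays) and Cy5 (squares, second arrays), with dashed lines at 2-fold. Marco lies at -2.36 and -2.29, Folr2 at 1.18 and 1.28 and Cd14 at 1.16 and 0.98, while the Cd163 points are 1.43 and 2.77.

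Over the 4 pools, the order of levels differed between markers. Adgre1 descended from the control fetus through the FD fetus and the control mother to the FD mother, with no overlap between the 4 pools. Marco had the fetal pools above the maternal ones, with control and FD overlapping on both sides. Folr2 was highest in the control mother, and the remaining 3 pools lay between 401 and 490 units, with the FD mother slightly above the fetal pools. Cd14 stood in steps from the fetal pools through the control mother to the FD mother, without overlap between those steps. Cd5l was lowest in the FD mother, and its other 3 pools lay between 8037 and 10029 units.

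The 5 genes whose pattern was nearest to that of Adgre1 were Srebf2, Ifi47, Abca8b, Alad and Ddost. Likeness was the Euclidean distance over 6 log2 values, the ratios on 4 arrays and the control difference in 2 dyes, among 15138 genes. The distances were 0.27 for Srebf2, 0.38 for Ifi47, 0.41 for Abca8b, 0.45 for Alad and 0.46 for Ddost. The nearest of the other markers was Cd5l at 0.99, in place 108, followed by Aif1 in place 199, Csf1r in place 240 and Cd68 in place 511. Clec4f stood in place 1994, Folr2 in 12232, Marco in 12626, Cd14 in 14487 and Cd163 in 14693. With 6 values from 4 arrays this order describes these pools only.

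Further macrophage genes were followed in 4 lists. Of 28 measured pan-macrophage genes, 26 were below 0 in the FD mother, with a median of -0.32, and 1 was called lower. Over all genes measured in the mother 52.1% were below 0 and the median was -0.0084. Of these genes 1.88% were called lower and 1.55% higher. All further lists in the mother are read against the same shares. The gene called was Ctsc, the lysosomal protease cathepsin C, at -1.22 and -1.38. Mpeg1, a pore-forming protein of phagocytes, was at -0.73 and did not reach the rule. The complement genes C1qa, C1qb and C1qc, which Kupffer cells make, lay at -0.42, -0.41 and -0.49. The signal summed over the list, 29 genes, was 45869 and 45579 units in the control mother and 33316 and 32865 units in the FD mother.

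Of 16 Kupffer cell identity genes and factors, 13 were below 0 in the FD mother, with a median of -0.27, and none was called. The lowest was Slc40a1, the iron exporter ferroportin, at a mean of -0.998. Timd4 and Vsig4, receptors of resident Kupffer cells for dying cells and complement, were both at -0.56, and Nr1h3, which encodes the liver X receptor alpha, was at -0.25. In the list of macrophage growth and lineage genes, 9 of 13 were below 0, with a median of -0.27. Csf1 was at -0.42 and Il34 at 0.14. Cebpb, a transcription factor of macrophages and hepatocytes, was called higher at 1.08 and 1.13. Of 12 scavenger and efferocytosis receptors 10 were below 0, with a median of -0.23, and Cd36, which also takes up fatty acids, was called higher at 1.95 and 1.74. In the maternal minus fetal difference, Slc40a1 and Ctsc were called lower at means of -1.04 and -1.12, as was the lipoprotein receptor Scarb1 at -1.13, and Cd36 was called higher at 1.46.

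Genes that act with Cd14 did not share its direction in the mother. Of 17 measured endotoxin sensing partners none was called, 8 were below 0 and 9 above, and the median was 0.00. Tlr4, the signalling receptor, was at -0.11, its partner Ly96 at -0.42, the carrier Lbp at 0.24 and the adaptor Myd88 at 0.41. Among 16 cytokines and chemokines 2 were called lower, against 1.88% of all genes, and the median was -0.10. They were Ccl9 at -1.25 and -1.42 and Ccl24 at -1.14 and -1.06. The same 2 chemokines were called lower in the maternal minus fetal difference, at means of -1.63 and -1.05, where 1.76% of all genes were. Cxcl10 at -1.11 and -0.88 and Il18 at a mean of -0.94 did not reach the rule. Il1b was at 0.01 and Il6 at 0.00. Of 14 red cell clearance genes none was called, with a median of 0.00.

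Markers of the other cells of a liver extract were read beside these. Of all genes measured in the mother 1.88% were called lower and 1.55% higher. In the mother none of 7 monocyte, 8 granulocyte, 14 dendritic or lymphocyte and 6 erythroid genes measured was called, with medians of -0.04, 0.05, -0.06 and -0.02. The antigen presentation genes H2-Ab1, Cd74, H2-Eb1 and H2-Aa in the lymphoid list lay at -0.81, -0.63, -0.55 and -0.49. The summed monocyte signal took in 11 genes, more than the 7 measured in the mother. It was 9452.4 and 9893.3 units in the control mother and 10127 and 10441 units in the FD mother. Of the 7 monocyte genes measured 5 were below 0 and 2 above, with Cd9 the highest at 0.56. Sinusoidal endothelial genes had a median of -0.18, and 1 of 13, the hyaluronan receptor Lyve1, was called higher at 1.17 and 0.86. Stellate cell genes had a median of -0.24, and 1 of 10, Col3a1, was called lower at -1.42 and -1.72 and also in the maternal minus fetal difference, at a mean of -1.15. Hepatocyte genes had a median of 0.14, and 1 of 11, Ttr, was called lower at -1.74 and -1.92. The part of these cells in the marker differences was not tested.

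**Figure D5:**
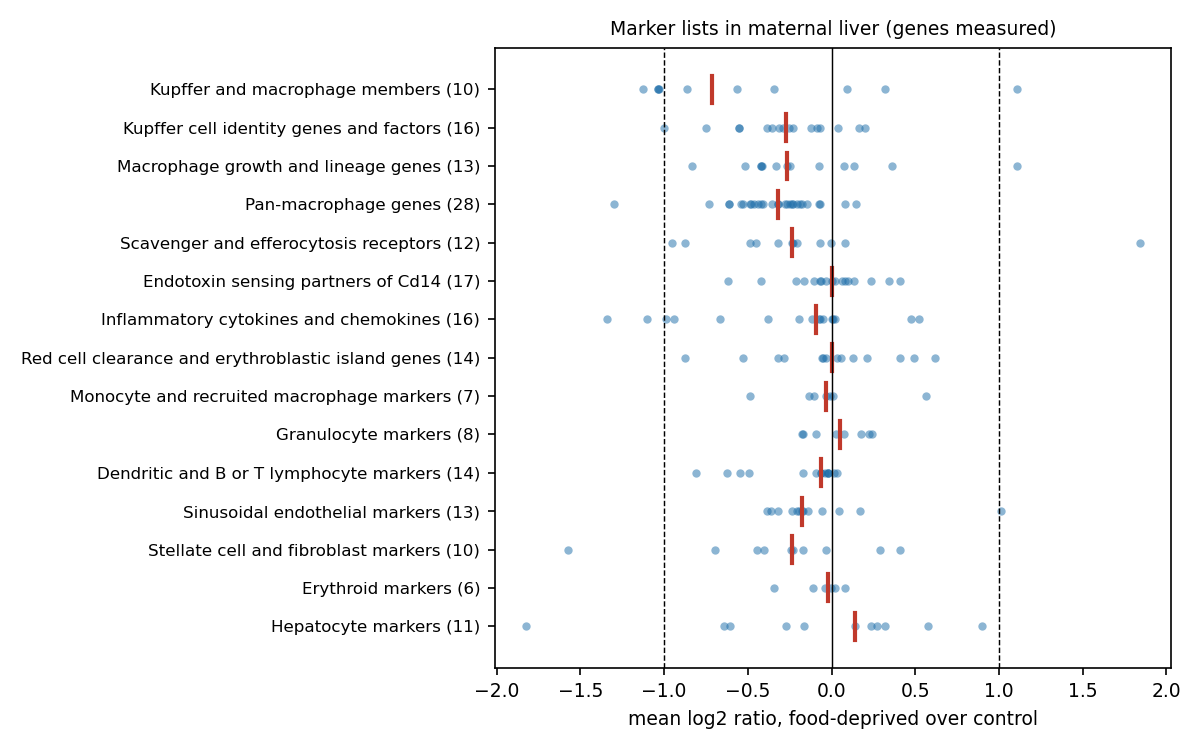
Mean log2 ratio of food-deprived over control maternal liver for every measured gene (points) of the 10 markers and 14 further lists, with a vertical bar at each list's median and the number of genes in parentheses. The median of the 10 markers is -0.72, those of the other macrophage identity, lineage and pan-macrophage lists are -0.27, -0.27 and -0.32, those of the stellate cell and sinusoidal endothelial lists are -0.24 and -0.18, and those of the monocyte, granulocyte and erythroid lists are -0.04, 0.05 and -0.02.

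In the fetus 48.7% of all measured genes were below 0 and 0.737% were called in either direction. Of 29 pan-macrophage genes 21 were above 0, with a median of 0.10, and of 11 scavenger and efferocytosis receptors all 11 were above 0, with a median of 0.13. Kupffer identity genes had a median of 0.03 and lineage genes of 0.03. None of these genes was called. Among 18 cytokines and chemokines 2 were called. Cxcl10 was lower at -1.13 and -1.63, the same direction as in the mother, and Arg1, the arginase that macrophages and hepatocytes share, was higher at 1.05 and 1.38. Erythroid genes were below 0 in 10 of 10, with a median of -0.22 that turned positive under median centring.

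Many genes of the macrophage lists were called between the control livers, where 19.3% of all genes were. Of 29 pan-macrophage genes 16 were called lower in the mother and 2 higher, with a median of -1.09. Coro1a, Cyba, Cd52 and Sirpa were the lowest, at mean differences of -3.60, -1.94, -1.84 and -1.70, and Fcgr2b and Ctsc were higher at 1.45 and 1.28. Of 16 Kupffer identity genes 4 were called higher and 4 lower. Vsig4, Nr1h3, C6 and Rxra were higher in the mother, by 1.94, 1.85, 1.24 and 1.07, and Spic, Clec1b, Zeb2 and Tfec were lower, at -1.54, -1.20, -1.11 and -1.04. Spic encodes a factor of macrophages that handle red cells. Of 14 red cell clearance genes 4 were called higher in the mother and 2 lower, with a median of 0.09. Gas6, Lrp1, Hpx and Dnase2a were higher, by 1.80, 1.62, 1.42 and 1.38. Vcam1, an adhesion molecule of erythroblastic island macrophages, and Hmox1, the haem oxygenase, were lower in the mother at -2.97 and -2.04.

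Markers of blood-forming cells were lower in the mother as well. Of all genes measured in the control livers 10.3% were called lower in the mother. Called lower there were 9 of 10 granulocyte genes, 10 of 10 erythroid genes and 4 of 10 monocyte genes. Of these called genes 4 granulocyte, 4 erythroid and 2 monocyte genes were not well above background in the mother, so their size is only a bound and no list median is given. Several pan-macrophage genes, such as Coro1a, Cyba and Itgb2, are also made by granulocytes and monocytes. Beside the 16 pan-macrophage genes called lower and 2 called higher, others were not called. Among these C1qa, C1qb and C1qc lay at -0.39, -0.18 and -0.76, Mpeg1 at -0.18, Ms4a7 at -0.09 and Mrc1 at 0.19. The remaining genes not called were Fcgr4 at -0.80, Slc11a1 at -0.70, Ctss at -0.53, Lcp1 at -0.52 and Lgmn at -0.40. Of the whole list 26 of 29 were below 0 and 3 above, while 48.2% of all genes were below 0. The part of these cells in the control difference was not tested.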

How the data were processed

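Liver RNA of 4 pools was measured on 4 two-colour Agilent arrays. Feature Extraction produced the files, version 9.5.3.1 in the submitters' processing notes and 9.5.1.1 in the file headers; probe positions were annotated on mm7, per the file headers. The deposited scanner files held spot intensity for each dye, and a log10 ratio of red over green per the file headers. The authors' deposited series table gave a further value per spot, whose log followed the scanner's processed ratio (r of at least 0.9999). Its column medians were -0.92, 0.94, -0.88 and 0.88; its scale was taken from that match, and the meaning of its sign and centring is not given in the sources used here. No column belonged to another series.

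Mean signals were background-corrected with limma 3.58.1 in R 4.3.3 (normexp, offset 50) and loess-normalised within each array, with control spots at weight 0. Levels were further scaled between arrays by average intensity (Aquantile). Outlier spots, 215 to 257 gene spots per array, were dropped. Spots of a probe were averaged, and the brightest measured probe stood for its gene. A gene was measured where control or FD signal was well above background on both arrays. Of all probes 22951 were named through a RefSeq accession and 18223 kept the name in the files. Sequences came from the array files and RefSeq. The steps were tested on simulated data.

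All members were named, with up to 4 called genes per direction of each list and the 5 genes nearest to Adgre1; further genes of the lists were named after their values were seen. Results on 1 further gene of the lists are not reported here. The members and lists were chosen with earlier results of these data known. Alternatives covered background, dye correction, scaling, dim-probe filter, probe choice, call rule, single arrays and the deposited ratio.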

Additional observations from a re-analysis of the deposited data

Results flagged for a closer look

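Cd5l and Csf1r, the secreted macrophage protein and the growth factor receptor, stood out because their fetal and maternal responses pointed in opposite directions on every array at their brightest probe. The Cd5l ratio was 0.03 and 0.03 in the fetus and -1.01 and -1.05 in the mother, a maternal minus fetal difference of -1.06 on the log2 scale. The fetal Cd5l values are close to 0, so that the opposite sign there is small. The Csf1r ratio was 0.29 and 0.05 in the fetus and -0.46 and -0.67 in the mother, a difference of -0.74. The second measured Csf1r probe, of medium brightness, gave -0.07 and 0.23 in the fetus and -0.52 and -0.18 in the mother, so that it did not share this pattern on array 1. Neither difference was tested, because each rests on 1 pair of pools in the fetus and 1 in the mother.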

How the results depend on the processing

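No marker called in any comparison changed direction under the alternatives. In the fetus the count of markers called was 0 under all 12 alternatives. In the mother it was 5, except 0 with median centring, 6 under the looser rule (mean 1.5-fold, each array 1.2-fold), which added Clec4f, and 4 to 5 on a single array. For the control level it was 4, except 5 under the looser rule and 3 without array 1. For the maternal minus fetal difference it moved from 1 to 3 without background subtraction, 3 with stained backgrounds reset, 4 with the scanner's signals, 4 with median centring, 7 under the looser rule, 2 on either single array and 4 with the deposited ratio. Over all genes the counts were 133 fetal, 554 maternal, 3492 control and 466 difference. They became 402, 1468, 7507 and 1203 with the scanner's signals, 488, 1603, 6420 and 1529 under the looser rule, and 403, 1472 and 1197 for the ratios with the deposited values; median centring left 129 maternal calls. Median centring also moved the share of calls that were higher from 63.9% to 75.8% in the fetus, from 45.1% to 34.9% in the mother and from 41.2% to 16.1% for the difference. Scaling to the 75th percentile moved the median control difference of all genes from 0.023 to 0.31. No paired analysis was possible because the replicate number goes with the dye orientation and the 2 arrays of a comparison count as 1 replicate. Dim readings, such as fetal Cd163 and Cd14, lie near the offset, which limits how well their ratios are fixed.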
